A study of Mus musculus with 9 samples.

Results

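The 7 genes described here code for proteins of the contacts between endothelial cells, and for the endothelial receptor CD93. They are Cldn5, Pecam1, Cdh5, Ocln, Tjp1, Esam and Cd93, and they were taken by gene symbol from the 53924 named rows of the deposited tables. Each symbol had 1 row, and all 7 had enough reads to be tested among 16634 genes. The study sequenced total RNA of mouse cerebellum in 9 libraries, 3 per group. PLX3AP mice received 3-acetylpyridine (3-AP) after PLX3397, 3AP mice received 3-AP, and control mice received saline. 3-AP is toxic to the inferior olive, whose climbing fibres reach the cerebellum, and is used as a model of ataxia, and PLX3397 inhibits the CSF1 receptor and is used to deplete microglia. Strain, age, sex, dose and interval are not given in the labels, which leave unsaid whether the libraries are from separate animals, so p-values measure the spread between these samples and this may be technical. None of the 9 libraries is from a group given PLX3397 alone. An effect of PLX3397 itself therefore cannot be told apart from a changed response to 3-AP.

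Brain capillaries are sealed by tight junctions between endothelial cells, and this seal is the core of the blood-brain barrier. Claudin-5 (Cldn5) forms most of the seal, occludin (Ocln) lies beside it in the membrane, and ZO-1 (Tjp1) ties both to actin. VE-cadherin (Cdh5) builds the adherens junction below, while PECAM-1 (Pecam1) and ESAM (Esam) are immunoglobulin-family adhesion proteins at the same contacts. CD93 is a C-type lectin-like receptor that binds the matrix protein multimerin-2 and takes part in endothelial adhesion and vessel growth. The genes differ in how far they mark endothelium. Cldn5, Cdh5 and Esam are largely endothelial in brain (Esam also occurs in platelets), Pecam1 and Cd93 also occur in myeloid cells, and Ocln and Tjp1 are made by many epithelial and neural cells.

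In brief, Cd93, Cldn5, Pecam1 and Cdh5 were higher in 3AP than in control cerebellum, in that order of fold change, and were lower in PLX3AP than in 3AP. Esam, Tjp1 and Ocln passed the test in no comparison. In the plot of expression by library, in CPM, these 4 and Esam lie above both other groups in 3AP without overlap. Groups did not overlap for 24.7% of all tested genes between 3AP and control and for 16.9% between PLX3AP and 3AP. No gene of the 7 passed between PLX3AP and control.

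**Figure D1:**
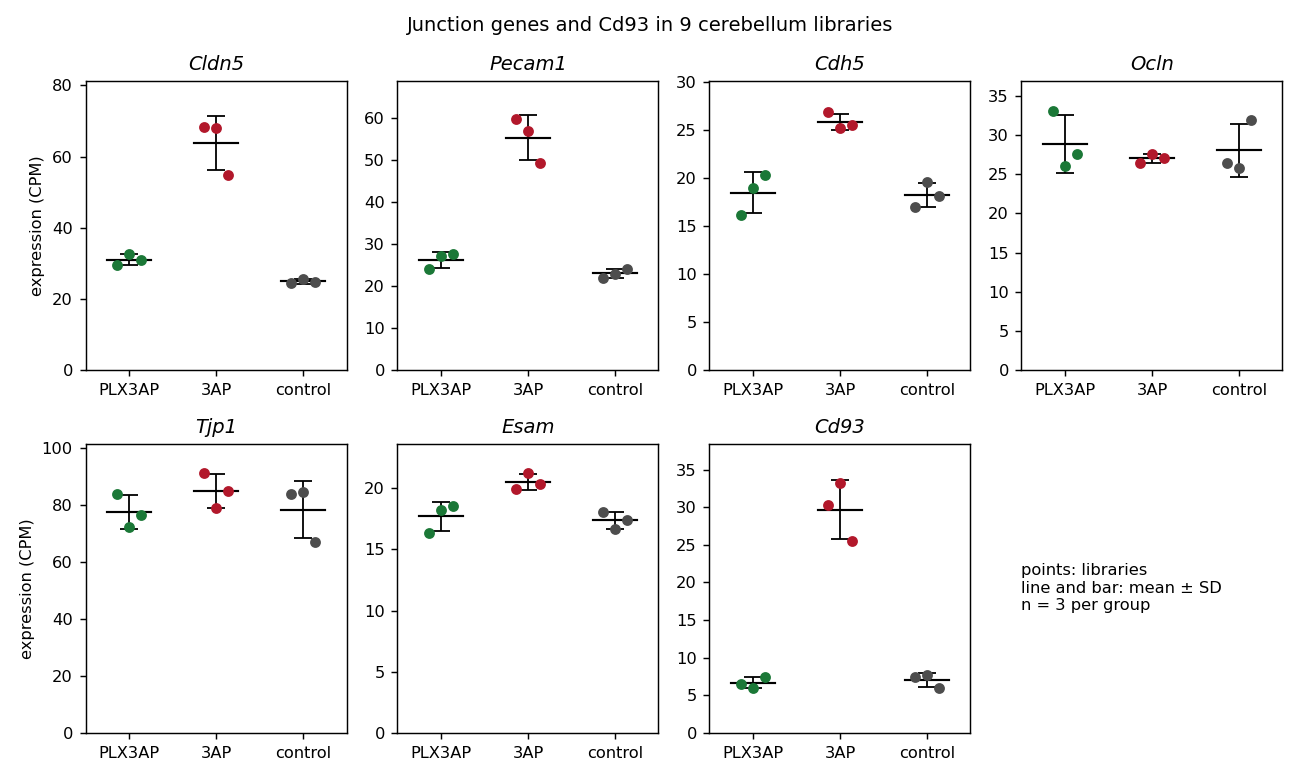
Expression of the 7 genes in each library as CPM (counts per 1e6 reads, scaled by TMM), by group, with mean and SD (n = 3). Cd93 lies between 25.5 and 33.2 in 3AP and at or below 7.70 in all PLX3AP and control libraries, while Ocln and Tjp1 overlap in all 3 groups.

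Libraries held 18452256 to 22358447 estimated reads. Neuron markers of the cerebellum were present in every library, at a summed 5429 to 6480 CPM for 7 genes such as Pcp2 and Gabra6. Endothelial markers were also present in every library, at a summed 256 to 380 CPM for 14 genes such as Flt1 and Tie1. A principal component analysis put 33.4% of the variance on an axis where 3AP libraries lay at 33.2 to 42.6 and the others at -25.9 to -14.2. Replicates differed by more than sampling noise, with a chi-square per degree of freedom of 4.68 to 27.2 between pairs. Choroid plexus markers ranged from 40.2 to 4042 CPM between libraries within and across groups.

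In mm10 coordinates, from GENCODE M21 on GRCm38, Cldn5 lies on chromosome 16 from 18776847 to 18778262 on the plus strand and is annotated as 1 transcript with 1 exon. Ocln lies on chromosome 13 from 100496507 to 100552718 on the minus strand, with 5 transcripts, and Tjp1 on chromosome 7 from 65296165 to 65527781 on the minus strand, with 7. Pecam1 (chromosome 11, 106654217 to 106750628, minus strand), Cdh5 (chromosome 8, 104101625 to 104144511, plus strand) and Esam (chromosome 9, 37528078 to 37538319, plus strand) are spliced genes of up to 16, 12 and 7 exons. Cd93 lies on chromosome 2 from 148436640 to 148443563 on the minus strand and has 2 exons. Esam counts were not whole numbers in any of the 9 libraries, so part of its reads had been shared out by estimate, and its values are less certain than those of the other genes. Cd93 counts were whole in 8 libraries and not in 1, control replicate 3 (122.17). Strandedness is not given in the sources used here, and the annotated antisense transcript inside Cdh5, Gm29682, had 0 reads in all libraries. Within Tjp1 the same-strand locus Gm44792 shares 1628 bases and had 678.36 estimated reads over the 9 libraries. Tjp1 counts were whole numbers in all 9 libraries.

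Upstream sequence is shown for the 3 tight junction genes, which are the 3 of the 7 genes matched in the promoter table used here. The 250 bases before the start site are from RefSeq on GRCm38.p6, each written 5′ to 3′ in the direction of transcription. They cover chr16:18776597-18776846 on the plus strand for Cldn5, chr13:100552719-100552968 on the minus strand for the first of 2 Ocln start sites, and chr7:65371245-65371494 on the minus strand for Tjp1. The RefSeq start of Tjp1 lies inside the longer GENCODE gene. Capitals mark matches on either strand to the GC box GGGCGG, the CCAAT box CCAAT and the ETS core GGAAG.
Cldn5: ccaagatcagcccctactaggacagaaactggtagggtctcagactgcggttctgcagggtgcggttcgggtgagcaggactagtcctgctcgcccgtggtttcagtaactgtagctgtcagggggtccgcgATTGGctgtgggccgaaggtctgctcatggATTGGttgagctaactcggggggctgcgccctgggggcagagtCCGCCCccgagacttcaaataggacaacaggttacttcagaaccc
Ocln: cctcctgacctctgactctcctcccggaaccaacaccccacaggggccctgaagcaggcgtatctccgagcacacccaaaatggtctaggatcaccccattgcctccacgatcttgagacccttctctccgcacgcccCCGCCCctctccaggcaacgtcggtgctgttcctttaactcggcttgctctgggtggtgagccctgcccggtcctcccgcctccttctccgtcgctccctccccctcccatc
Tjp1: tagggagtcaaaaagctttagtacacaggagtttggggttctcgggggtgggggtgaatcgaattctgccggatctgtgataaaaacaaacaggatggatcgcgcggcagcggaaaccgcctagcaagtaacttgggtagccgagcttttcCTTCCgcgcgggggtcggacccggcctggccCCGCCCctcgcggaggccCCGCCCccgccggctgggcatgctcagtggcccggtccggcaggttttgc
The Cldn5 sequence holds 2 CCAAT boxes, 118 and 88 bases before the start site, and 1 GC box 45 bases before it. The printed Ocln sequence holds 1 GC box, the sequence before the second Ocln start site holds a CCAAT box 25 bases and a GC box 43 bases before that site, and the Tjp1 sequence 2 GC boxes and 1 ETS core. Of 32851 upstream sequences of this length, 33.8% hold a CCAAT box, 32.7% a GC box and 64.1% an ETS core. The FOX motif TGTTTAC, held by 3.17% of all, was in none of the 3 sequences. The same was true of the SOX motif ACAAAG, held by 16.5%, and of the STAT motif TTCNNNGAA, held by 7.02%. A TATA box (TATAAA, 12.4%) and an NF-kB motif (1.41%) were likewise not in these windows. The Cldn5 sequence is 59.6% G and C, and the median over all was 52.4%.

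Levels can be compared between genes per transcript length, as TPM, which is scaled to transcript length and library total. In PLX3AP cerebellum Cldn5 was the highest at 43.6 ± 3.51 TPM (SD, n = 3, as for the values that follow), and Cdh5 and Cd93 were the lowest at 7.99 ± 1.30 and 1.67 ± 0.261. Between them Tjp1, Esam, Ocln and Pecam1, at 19.8, 18.2, 16.3 and 14.4 TPM, each overlapped with its neighbour between libraries. In 3AP cerebellum Cldn5 again led, at 89.7 ± 10.8 TPM, and Pecam1 at 30.2 ± 2.81 TPM stood second. Tjp1 at 22.7 ± 0.551 TPM and Esam at 21.8 ± 2.69 overlapped, and Ocln at 15.6 ± 0.734, Cdh5 at 11.2 ± 0.21 and Cd93 at 7.48 ± 1.04 followed without overlap. In control cerebellum Cldn5 was at 33.7 ± 1.93 TPM, Tjp1 at 19.9 ± 0.872, Esam at 17.0 ± 1.41 and Ocln at 15.5 ± 1.64. Pecam1 followed at 11.98 ± 0.208 TPM, Cdh5 at 7.59 ± 0.617 and Cd93 at 1.71 ± 0.293, and only Esam and Ocln overlapped as neighbours. Cldn5 was thus the highest and Cd93 the lowest of the 7 in each group, and Pecam1 had a higher place in that order in 3AP than in PLX3AP and control. Overlap between groups was not the same in TPM as in CPM for Tjp1 and Esam. All 3AP libraries of Tjp1 (22.17 to 23.27 TPM) lay above those of PLX3AP (19.63 to 19.99) and control (18.9 to 20.41). Esam reached 19.98 TPM in PLX3AP and was as low as 19.31 TPM in 3AP, so these groups overlapped.

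3AP was set against control to find what follows 3-AP. Of the 7 genes 4 rose and none fell, where edgeR called 4.93% of all tested genes, 3.75% higher and 1.18% lower. The median log2 fold change of the 7 was 0.50, beside 0.00 for all tested genes. The 7 were chosen with earlier results of these data known, and the count describes them and is not independent evidence. In bulk tissue fewer cells of a type and less RNA per cell cannot be told apart, and the same holds for more.

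Among the tight junction genes, Cldn5 was at 68.3, 68.1 and 54.9 CPM in 3AP libraries, against 24.5, 25.7 and 24.7 CPM in control libraries. The groups did not overlap, and 3AP replicate 3 was the lowest of its group. Cldn5 rose 2.56-fold (log2 fold change 1.35 with an SE of 0.10, n = 3 per group, edgeR adjusted p 9.75e-06). Ocln was at 26.5, 27.6 and 27.0 CPM in 3AP, against 26.4, 25.8 and 32.0 CPM in control, so the groups overlapped. Its log2 fold change was -0.05 (95% interval -0.30 to 0.19, edgeR adjusted p 0.864), and the highest control library, replicate 3, had the highest choroid plexus marker sum, 4042 CPM. Choroid plexus epithelium expresses occludin. In all 3 groups the library highest in Ocln was also the one highest in choroid plexus markers. These summed to 2059 CPM in PLX3AP replicate 1 and 1977 CPM in 3AP replicate 2. Ocln did not follow these markers throughout. PLX3AP replicate 3, at a sum of 1882 CPM, had 27.5 CPM of Ocln, and PLX3AP replicate 2, at 40.2 CPM, had 26.1. Control replicate 2 had a higher marker sum than control replicate 1 (362 and 129 CPM) and less Ocln. In the same way 3AP replicate 1 stood above 3AP replicate 3 (989 and 637 CPM) with less Ocln. The part of choroid plexus in the Ocln values was not tested. Tjp1 was at 91.0, 78.8 and 84.8 CPM in 3AP and 83.7, 84.4 and 66.8 CPM in control, with overlap, and a log2 fold change of 0.12 (95% interval -0.10 to 0.33, edgeR adjusted p 0.628). The intervals of Ocln and Tjp1 do not reach the change of Cldn5, whose own interval ran from 1.15 to 1.56.

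Of the adhesion genes at the same contacts, Pecam1 was at 59.6, 56.8 and 49.3 CPM in 3AP, against 22.01, 22.9 and 24.2 CPM in control. It rose 2.4-fold (log2 fold change 1.26 with an SE of 0.10, n = 3 per group, edgeR adjusted p 1.72e-05), without overlap. Cdh5, the adherens junction cadherin, was at 26.8, 25.2 and 25.5 CPM in 3AP, against 17.0, 19.6 and 18.2 CPM in control. The groups did not overlap, and Cdh5 rose 1.42-fold (log2 fold change 0.50 with an SE of 0.11, n = 3 per group, edgeR adjusted p 0.0152). That call was lost without control replicate 1 (adjusted p 0.0853), without 3AP replicate 1 (0.0736), and with limma-trend on TPM (0.082 or 0.0836). Esam was at 19.9, 21.2 and 20.3 CPM in 3AP, against 18.1, 16.6 and 17.4 CPM in control. These groups did not overlap either, as was so for 24.7% of all tested genes (13.6% in the higher direction), but Esam did not pass (log2 fold change 0.24, SE 0.10, edgeR adjusted p 0.219). Its 95% interval, 0.03 to 0.45, lay above 0, with an unadjusted edgeR p of 0.0276.

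Cd93 had the widest change of the 7. It was at 30.3, 33.2 and 25.5 CPM in 3AP libraries, against 7.47, 7.70 and 5.95 CPM in control libraries. It rose 4.21-fold (log2 fold change 2.07 with an SE of 0.14, n = 3 per group, edgeR adjusted p 9.75e-06), and no 3AP library came near the control range. The 95% interval of its log2 fold change, 1.76 to 2.39, lay above those of Pecam1 (1.06 to 1.47), Cldn5 and Cdh5 (0.27 to 0.73).

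**Figure D2:**
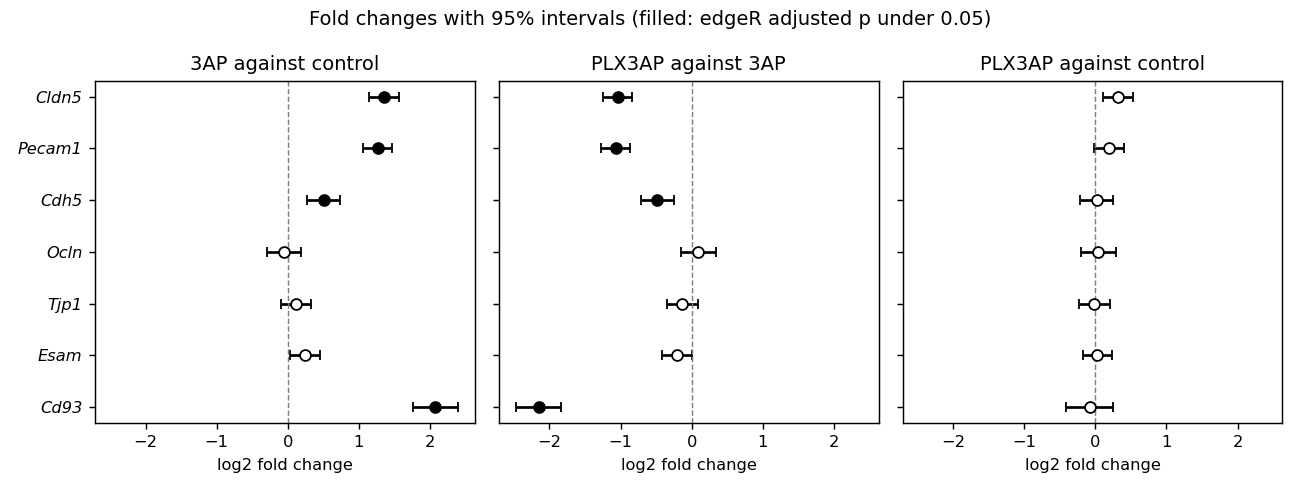
Log2 fold changes of the 7 genes with 95% intervals in the 3 comparisons, where filled points had an edgeR adjusted p under 0.05 (9 libraries, 3 per group). Cd93, Cldn5, Pecam1 and Cdh5 are filled above 0 for 3AP against control and below 0 for PLX3AP against 3AP, and no point is filled for PLX3AP against control.

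PLX3AP was set against 3AP to find what differs when PLX3397 precedes 3-AP. The 3AP libraries are those used against control above, so both comparisons share them. Of the 7 genes 4 fell and none rose, where edgeR called 3.73% of all tested genes, 3.16% lower and 0.577% higher. The median log2 fold change of the 7 was -0.48, beside -0.01 for all tested genes.

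Cldn5 was at 29.6, 32.6 and 30.97 CPM in PLX3AP libraries, against 68.3, 68.1 and 54.9 CPM in 3AP libraries, and was 2.05-fold lower (log2 fold change -1.04, SE 0.09, 3 libraries a group, edgeR adjusted p 4.31e-05). Pecam1 was at 24.2, 27.1 and 27.7 CPM in PLX3AP, against 59.6, 56.8 and 49.3 CPM in 3AP, and was 2.1-fold lower (log2 fold change -1.07, SE 0.09, 3 libraries a group, edgeR adjusted p 4.23e-05). Neither gene overlapped between the groups. Cdh5 was at 16.1, 19.0 and 20.3 CPM in PLX3AP, against 26.8, 25.2 and 25.5 CPM in 3AP, and was 1.4-fold lower (log2 fold change -0.48 with an SE of 0.11, n = 3 per group, edgeR adjusted p 0.021). Its call was lost without 3AP replicate 1 (0.0939), 3AP replicate 2 (0.051) or PLX3AP replicate 2 (0.0623), and with limma-trend on TPM (0.159). Cd93 was at 6.48, 6.01 and 7.49 CPM in PLX3AP, against 30.3, 33.2 and 25.5 CPM in 3AP, and was 4.45-fold lower (log2 fold change -2.15 with an SE of 0.15, n = 3 per group, edgeR adjusted p 1.55e-05). All 3 PLX3AP libraries fell within the control range of Cd93, 5.95 to 7.70 CPM.

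The other 3 genes did not pass between PLX3AP and 3AP. Esam was at 16.4, 18.2 and 18.6 CPM in PLX3AP, against 19.9, 21.2 and 20.3 CPM in 3AP, without overlap, as for 16.9% of all tested genes (9.22% lower and 7.66% higher). It did not pass (log2 fold change -0.21, SE 0.10, 95% interval -0.42 to -0.001, unadjusted edgeR p 0.0487, edgeR adjusted p 0.411). Tjp1 was at 83.9, 72.2 and 76.4 CPM in PLX3AP, against 91.0, 78.8 and 84.8 CPM in 3AP (log2 fold change -0.13, SE 0.10, edgeR adjusted p 0.699). Ocln was at 33.1, 26.1 and 27.5 CPM in PLX3AP, against 26.5, 27.6 and 27.0 CPM in 3AP (log2 fold change 0.10, SE 0.11, edgeR adjusted p 0.819). Both overlapped between the groups, and the 95% interval of Ocln ran from -0.15 to 0.34.

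Between PLX3AP and control edgeR called 0 of the 7 genes, and 0.120% of all tested genes (0.0361% higher and 0.0842% lower). DESeq2 and limma-voom also called 0, and 1 of the 7, Cldn5, had an unadjusted p under 0.05. Of all 16634 tested genes, 1556 had an unadjusted p under 0.05 in this comparison, 2826 in 3AP against control and 2005 in PLX3AP against 3AP. The counts of unadjusted p-values given for the lists below are to be read beside these. Calls in the lists are likewise to be read beside the edgeR share of all tested genes. That share was 4.93% in 3AP against control, 3.73% in PLX3AP against 3AP and 0.120% in PLX3AP against control. Cldn5 was at 29.6, 32.6 and 30.97 CPM in PLX3AP, against 24.5, 25.7 and 24.7 CPM in control. All PLX3AP libraries lay above all control libraries, as for 7.86% of all tested genes (6.42% lay below, 14.3% in all), and its log2 fold change was 0.32 (95% interval 0.11 to 0.53, unadjusted p 0.00617, edgeR adjusted p 0.327). Pecam1 averaged 26.3 ± 1.89 CPM in PLX3AP and 23.0 ± 1.09 CPM in control (SD, n = 3 each), with the lowest PLX3AP library, 24.2 CPM, at the level of the highest control library. Its log2 fold change was 0.19 (95% interval -0.02 to 0.40, edgeR adjusted p 0.556). Cdh5 averaged 18.5 ± 2.14 CPM in PLX3AP and 18.3 ± 1.26 CPM in control, and Esam 17.7 ± 1.18 CPM in PLX3AP and 17.4 ± 0.718 CPM in control. Cd93 averaged 6.66 ± 0.758 CPM in PLX3AP and 7.04 ± 0.953 CPM in control, with a 95% interval of its log2 fold change from -0.41 to 0.25. The intervals of Cdh5, Ocln, Tjp1 and Esam in this comparison all lay between -0.23 and 0.29.

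To describe the 7 genes beside other endothelial genes, the log2 CPM of each was set against the mean log2 CPM of 14 endothelial markers in the same library. These markers moved too: 6 of 14 rose in 3AP against control and 0 fell, with a median log2 fold change of 0.40, and their mean log2 CPM was 4.30 to 4.40 in 3AP, 3.88 to 3.92 in PLX3AP and 3.86 to 3.89 in control. Relative to them Cldn5 was higher by 0.87 on the log2 scale in 3AP than in control (means 1.64 and 0.77), Pecam1 by 0.78 (1.43 and 0.66) and Cd93 by 1.58 (0.53 and -1.05). Cdh5 was at 0.35 in 3AP and 0.32 in control, a difference of 0.02. Esam was lower relative to them, at 0.01 in 3AP and 0.25 in control, and so were Tjp1 (2.05 and 2.41) and Ocln (0.41 and 0.93). Because the mean of the markers rose in 3AP, a gene with no change of its own lies lower by this measure. The direct log2 fold changes of Esam, Tjp1 and Ocln were 0.24, 0.12 and -0.05, and Tjp1 and Ocln are also made by other cells. For the 6 genes other than Cdh5 the exact two-sided permutation p was 0.1, the smallest that 3 against 3 libraries can give. It was 0.162 after adjustment over 21 tests, so no gene passes. The same 6 genes differed in the other direction between PLX3AP and 3AP, again with an exact permutation p of 0.1, and Cdh5 differed by -0.04 (exact permutation p 0.8).

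**Figure D3:**
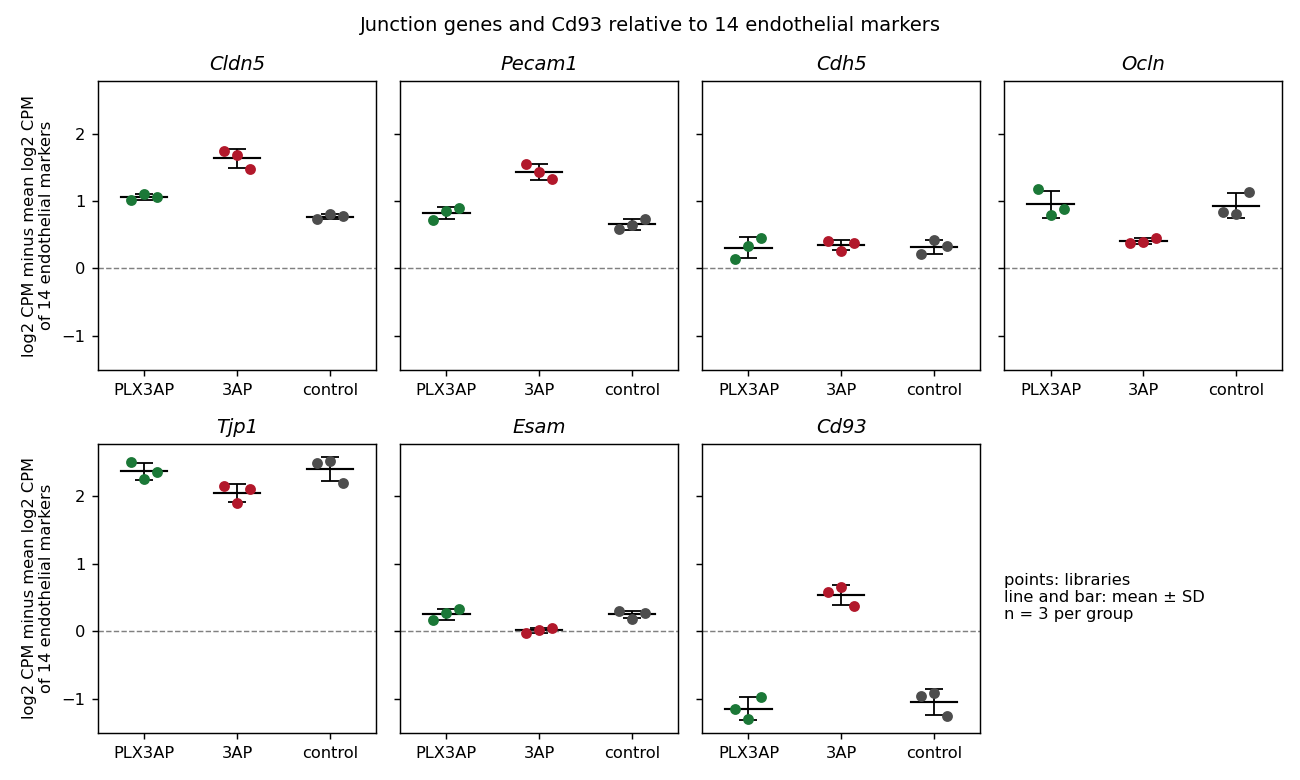
Log2 CPM of each gene minus the mean log2 CPM of 14 endothelial markers in the same library, by group, with mean and SD (n = 3). Relative to the markers, whose mean rose in 3AP, Cdh5 stays near 0.3 in all 3 groups. On this scale Cldn5, Pecam1 and Cd93 are higher in 3AP, and Ocln, Tjp1 and Esam are lower in 3AP.

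Among the 14 endothelial markers, those with the smallest p in 3AP against control were Cd34, a sialomucin of vessel surfaces, Vwf, the von Willebrand factor that binds platelets, and Egfl7, a secreted vessel protein. Vwf was at 52.0 ± 7.65 CPM in 3AP and 21.4 ± 1.32 CPM in control (log2 fold change 1.28 with an SE of 0.12, n = 3 per group, edgeR adjusted p 6.24e-05). Cd34 rose by 1.11 on the log2 scale and Egfl7 by 1.06. Kdr, the main VEGF receptor, rose by 0.71, a call lost without 3AP replicate 1 or 2, and Tek, the angiopoietin receptor, rose by 0.56, a call lost without control replicate 3 or 3AP replicate 1 or 2 (adjusted p 0.0516 to 0.0979 for both genes over all settings that lost it). Eng, a TGF-beta coreceptor, rose by 0.63, a call lost on TPM (0.0539 and 0.0554). Flt1, a VEGF receptor that lowers VEGF signalling, was at 60.3 ± 0.339 CPM in 3AP and 66.7 ± 4.81 CPM in control and did not pass (log2 fold change -0.15, edgeR adjusted p 0.366), nor did Tie1, an orphan receptor of the same family as Tek (0.43, adjusted p 0.0517). In PLX3AP against 3AP 5 of 14 fell, namely Vwf, Cd34, Egfl7, Tie1 and Eng, and 0 rose. The Tie1 call was lost there without 3AP replicate 2 and on TPM (0.0562 to 0.133). The Eng call was lost without 3AP replicate 1 or 2 or any 1 PLX3AP library, under the replicate block and on TPM (0.0612 to 0.155). Against control edgeR called 0 of 14 in PLX3AP, as did DESeq2 and limma-voom, and 0 had an unadjusted p under 0.05.

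Most other tight junction genes did not pass the test, nor did most tested genes. EdgeR called 4.93% of all tested genes in 3AP against control and 3.73% in PLX3AP against 3AP. In 3AP against control 2 of 17 tested rose, 1 fell and 14 did not pass, with a median log2 fold change of -0.05. The 2 that rose were Lsr, the angulin-1 gene of contacts where 3 cells meet, and F11r, which codes for JAM-A. Lsr was at 18.1 ± 1.44 CPM in 3AP and 8.80 ± 0.501 CPM in control (log2 fold change 1.04 with an SE of 0.12, n = 3 per group, edgeR adjusted p 0.000235). F11r was at 15.1 ± 1.30 CPM in 3AP and 8.92 ± 1.86 CPM in control (log2 fold change 0.76, edgeR adjusted p 0.0165), a call lost without control replicate 1 or 2 or 3AP replicate 1 or 2 (0.0683 to 0.0938). Jam2, which codes for JAM-B, fell to 64.1 ± 4.47 CPM in 3AP, against 83.9 ± 6.62 CPM in control (log2 fold change -0.39, edgeR adjusted p 0.0351), a call lost without control replicate 1 or 2, 3AP replicate 1 or 2 or PLX3AP replicate 3, under the replicate block and on TPM (0.0517 to 0.301). Cldn12, another claudin, was at 59.3 ± 2.38 CPM in 3AP and 60.3 ± 2.20 CPM in control. Cgnl1, the junctional adaptor paracingulin, was at 74.9 ± 6.40 CPM in 3AP and 62.4 ± 1.68 CPM in control (edgeR adjusted p 0.0901). Against 3AP, Lsr (7.16 ± 0.466 CPM, log2 fold change -1.34) and F11r (8.33 ± 1.21 CPM, -0.86) fell in PLX3AP and 15 of 17 did not pass. The F11r call was lost there without 3AP replicate 1 or PLX3AP replicate 2 (0.05 and 0.0511). Between PLX3AP and control edgeR called 0 of 17, with 2 at an unadjusted p under 0.05 and 0 by DESeq2 or limma-voom.

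Of 11 adherens junction genes edgeR called 0 in 3AP against control, where it called 4.93% of all tested genes, so 0 calls does not set this list apart. There 3 had an unadjusted p under 0.05, 1 was called by DESeq2 and 0 by limma-voom. Their median log2 fold change was -0.02. Ctnnb1, which codes for the beta-catenin that binds VE-cadherin, was at 535 ± 16.4 CPM in 3AP and 608 ± 25.6 CPM in control (log2 fold change -0.19, edgeR adjusted p 0.166). Cdh2, N-cadherin, was at 102 ± 2.67 CPM in 3AP and 107 ± 6.21 CPM in control. EdgeR called 0 of 11 in PLX3AP against 3AP (0 at an unadjusted p under 0.05) and 0 in PLX3AP against control (1 at an unadjusted p under 0.05), and so did DESeq2 and limma-voom. Many of these genes are made by neurons and glia as well.

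Some genes tied to CD93 by structure or binding also passed the test. Of 7 tested, 3 rose in 3AP against control and 0 fell, with a median log2 fold change of 0.53. Clec14a, an endothelial lectin-like receptor of the CD93 family, was at 10.01 ± 0.410 CPM in 3AP and 3.53 ± 0.183 CPM in control (log2 fold change 1.503 with an SE of 0.17, n = 3 per group, edgeR adjusted p 0.000235). Mmrn2, the matrix ligand multimerin-2, was at 14.7 ± 2.05 CPM in 3AP and 5.17 ± 1.55 CPM in control (log2 fold change 1.502 with an SE of 0.20, n = 3 per group, edgeR adjusted p 0.000609). Igfbp7, a further secreted ligand, was at 50.7, 49.7 and 40.8 CPM in 3AP, against 17.6, 18.4 and 29.1 CPM in control (log2 fold change 1.12, SE 0.17, edgeR adjusted p 0.00306). Thbd, the family member thrombomodulin that turns thrombin to anticoagulant use, was at 23.9 ± 2.25 CPM in 3AP and 16.5 ± 3.31 CPM in control and did not pass (adjusted p 0.171). Cd248, the family member of mural and stromal cells, averaged 3.90 CPM in 3AP and 3.21 CPM in control and did not pass. In PLX3AP against 3AP 4 of 7 fell, Igfbp7 by 1.46, Mmrn2 by 1.28, Clec14a by 0.93 and Thbd by 0.89 on the log2 scale. The Thbd call (adjusted p 0.0248) was lost without any 1 of 3AP replicates 1, 2 and 3 or PLX3AP replicates 1 and 2, and on TPM (0.0585 to 0.101). The Mmrn2 call was lost there on log2(TPM + 0.1) (0.0641). Between PLX3AP and control edgeR, DESeq2 and limma-voom called 0 of 7, with 1 at an unadjusted p under 0.05, and Clec14a was at 5.27 ± 1.09 CPM in PLX3AP and 3.53 ± 0.183 CPM in control (log2 fold change 0.57, edgeR adjusted p 0.327).

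Of 7 other endothelial surface and gap junction genes 2 rose in 3AP against control and fell in PLX3AP against 3AP. Podxl, the anti-adhesive sialomucin podocalyxin, was at 57.5 ± 2.18 CPM in 3AP and 30.1 ± 1.52 CPM in control (log2 fold change 0.93 with an SE of 0.08, n = 3 per group, edgeR adjusted p 3.25e-05), and at 30.97 ± 2.13 CPM in PLX3AP (-0.89 against 3AP). Icam2, an adhesion molecule for leukocytes, was at 6.46 ± 1.24 CPM in 3AP and 3.35 ± 0.493 CPM in control (0.95, edgeR adjusted p 0.0183), and fell in PLX3AP by 1.07 (edgeR adjusted p 0.00974). The Icam2 calls were lost without control replicate 1 or 2 or 3AP replicate 1 or 2 against control, also under the replicate block (0.0536 to 0.0989), and without 3AP replicate 1 or PLX3AP replicate 3 against 3AP, also on TPM (0.055 to 0.0605). Plvap, which marks leaky, fenestrated endothelium, was at 17.7, 18.0 and 14.1 CPM in 3AP, against 11.3, 12.53 and 14.7 CPM in control, with overlap, and did not pass (log2 fold change 0.37, edgeR adjusted p 0.155). Between PLX3AP and control edgeR, DESeq2 and limma-voom called 0 of 7, with 2 at an unadjusted p under 0.05.

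Regulators of the barrier are set beside all tested genes, of which edgeR called 4.93% in 3AP against control and 3.73% in PLX3AP against 3AP. Of 14 genes of the Wnt pathway that induces Cldn5 in brain endothelium, 1 fell in 3AP against control and 0 rose, with a median log2 fold change of 0.04. The 1 was Fzd4, the frizzled receptor for norrin, at 21.4 ± 1.04 CPM in 3AP and 30.0 ± 5.12 CPM in control (log2 fold change -0.49, edgeR adjusted p 0.0368). Its call was lost without control replicate 2 or 3 or any 1 of 3AP replicates 1, 2 and 3, and under limma-voom, the replicate block and TPM (0.059 to 0.269). Adgra2, the GPR124 coreceptor for WNT7, was at 21.4 ± 1.19 CPM in 3AP and 16.4 ± 1.05 CPM in control and did not pass (adjusted p 0.0619), and Foxq1, a barrier transcription factor, averaged 4.79 CPM in 3AP and 4.65 CPM in control. EdgeR called 0 of 14 in PLX3AP against 3AP and 0 in PLX3AP against control, with 2 each at an unadjusted p under 0.05 and 0 by DESeq2 or limma-voom. Of 9 endothelial transcription factors edgeR called 0 in 3AP against control (1 at an unadjusted p under 0.05) and 0 in PLX3AP against control (0), and DESeq2 and limma-voom called 0 in both. Klf2, which laminar flow induces, was at 12.47 ± 1.87 CPM in 3AP and 12.1 ± 0.721 CPM in control. Fli1, an ETS factor of endothelial and blood cells, fell in PLX3AP against 3AP (2.16 ± 0.474 and 3.97 ± 0.384 CPM, edgeR adjusted p 0.0488), a call lost in 13 of 17 alternatives, among them leaving out any 1 library other than PLX3AP replicate 2 (0.0576 to 0.635 over the 13).

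Of 8 genes of permeability signalling, S1pr1 fell and Rhoj rose in 3AP against control. S1pr1, the sphingosine 1-phosphate receptor that steadies VE-cadherin contacts and is also made by astrocytes, was at 160 ± 0.711 CPM in 3AP and 204 ± 5.602 CPM in control (log2 fold change -0.35 with an SE of 0.06, n = 3 per group, edgeR adjusted p 0.00591, lost on TPM at 0.0877 and 0.0962). In PLX3AP it was at 208 ± 9.51 CPM and was higher than in 3AP (0.38, SE 0.06, edgeR adjusted p 0.00396). Rhoj, an endothelial GTPase, was at 13.8 ± 2.02 CPM in 3AP and 8.81 ± 0.561 CPM in control (0.64, edgeR adjusted p 0.022), a call lost without control replicate 1 or 2 or 3AP replicate 1, under the replicate block and on TPM (0.0542 to 0.119). Angpt2, the antagonist ligand of Tek that loosens vessels, was at 3.59 ± 0.315 CPM in 3AP and 2.92 ± 0.115 CPM in control and did not pass (adjusted p 0.515). Between PLX3AP and control edgeR, DESeq2 and limma-voom called 0 of 8, with 2 at an unadjusted p under 0.05.

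**Figure D4:**
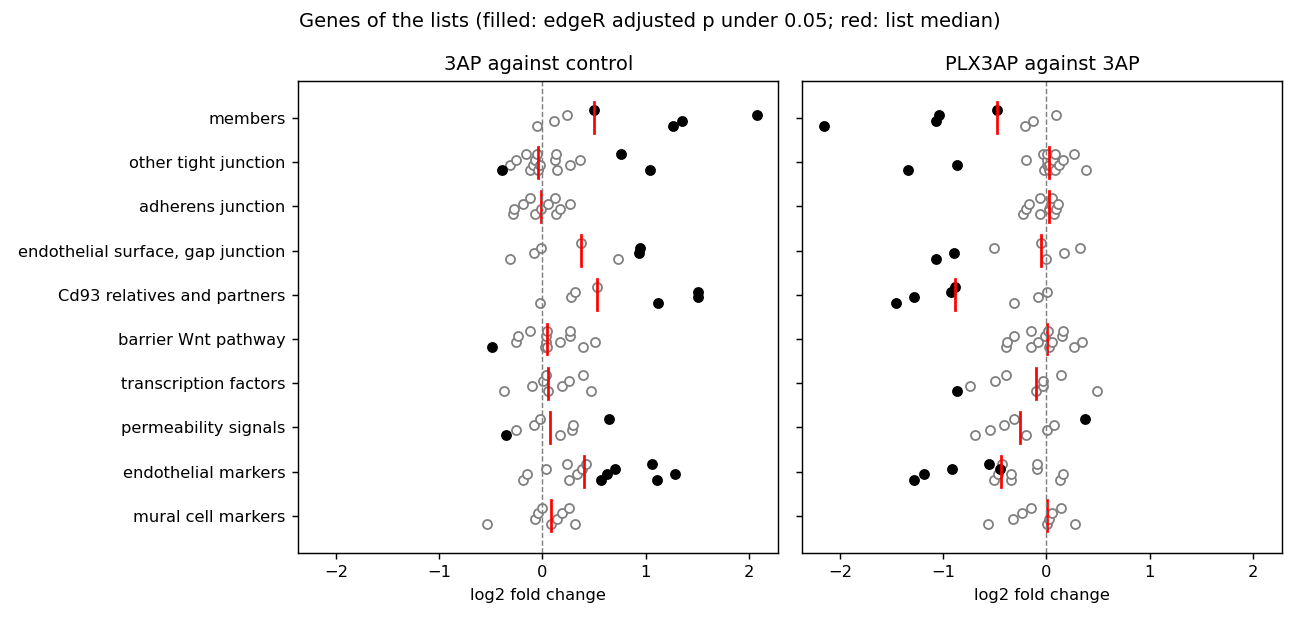
Log2 fold changes of the tested genes of 10 lists in 3AP against control (left) and PLX3AP against 3AP (right), where filled points had an edgeR adjusted p under 0.05 and red lines are list medians (9 libraries, 3 per group). The adherens junction and mural cell lists have no filled point in either panel, and filled points of the Cd93 list lie above 0 on the left and below 0 on the right. Of all tested genes edgeR called 4.93% on the left and 3.73% on the right.

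Pecam1 and Cd93 also occur in myeloid cells, and most listed myeloid markers moved with the groups. Of 11 tested microglia and macrophage markers, 8 rose in 3AP against control, where edgeR called 3.75% of all tested genes higher. In PLX3AP against 3AP 10 fell (3.16% of all tested genes), and 2 (Mrc1 and F13a1) fell in PLX3AP against control (0.0842%). No listed marker was at 0 in all libraries. Those that did not pass in 3AP against control were Csf1r (log2 fold change 0.69, edgeR adjusted p 0.0544), Mrc1 (0.11, 0.913) and P2ry12 (-0.47, 0.391). P2ry12 did not pass in PLX3AP against 3AP either (-0.87, 0.127). The rise of Tmem119 was lost without control replicate 1 or 2 or 3AP replicate 1, under the replicate block and on TPM (0.0572 to 0.149). That of Cx3cr1 was lost on log2(TPM + 0.1) (0.0516). The Mrc1 call against control was lost without PLX3AP replicate 2, with limma-voom and on log2(TPM + 1) (0.0585 to 0.0683), and the F13a1 call on log2(TPM + 1) (0.0599). The summed level of the 12 listed was 78.4 to 122 CPM in PLX3AP, 281 to 337 CPM in 3AP and 144 to 155 CPM in control. This sum was lower in every PLX3AP library than in any control library. Cd93 overlapped between PLX3AP and control, as did the blood leukocyte sum given below. The lowest Pecam1 value in PLX3AP lay at the top of the control range. The part of myeloid cells in the 3AP values of Pecam1 and Cd93 was not tested. Of 6 tested blood leukocyte markers, 4 rose in 3AP against control and 5 fell in PLX3AP against 3AP, and the 9 listed summed to 1.45 to 2.20 CPM in PLX3AP, 9.50 to 24.1 CPM in 3AP and 1.13 to 3.95 CPM in control. Of the rises, Plac8 was called in all 17 alternatives, S100a9 was lost in 3 of 17 (0.0525 to 0.0623, among them without control replicate 2), Ly6c2 in 5 of 17 (0.0544 to 0.0933) and Retnlg in 6 of 16 (0.0654 to 0.185). Ly6c2 and Retnlg were each lost without control replicate 1 or 2 or 3AP replicate 1 or 2, and Retnlg also without PLX3AP replicate 3. Of the falls, Plac8 and S100a9 were called in all 17. Ly6c2 was lost without 3AP replicate 1 or PLX3AP replicate 2 (0.0526 and 0.0553), Ccr2 in 3 of 16, among them without 3AP replicate 1 or PLX3AP replicate 3 (0.0711 to 0.132), and Retnlg in 8 of 16, among them without control replicate 2, 3AP replicate 1 or 2 or any 1 PLX3AP library (0.056 to 0.234). Platelet markers, set beside Esam, summed to 1.32 to 1.72 CPM in PLX3AP, 1.85 to 2.70 CPM in 3AP and 1.69 to 2.70 CPM in control. Of 3 tested, 1, Pf4, fell in PLX3AP against 3AP, at 2, 1 and 4 counts in PLX3AP and 15, 11 and 16 in 3AP. This call was lost without 3AP replicate 1 or 3 or PLX3AP replicate 1 or 2 (0.0521 to 0.103). The other tested genes, Itga2b (log2 fold change -0.14, edgeR adjusted p 0.912) and Gp1bb (0.20, 0.952), did not pass. Whether the Pf4 change is one of platelets was not tested.

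Mural cells share the vessel wall with endothelium, and edgeR called 0 of their 9 markers in all 3 comparisons, with 2, 2 and 0 at an unadjusted p under 0.05 in 3AP set against control, in PLX3AP set against 3AP, and in PLX3AP set against control. DESeq2 called 1 of them in 3AP against control and 0 in the others, and limma-voom 0. Their summed level was 256 to 271 CPM in PLX3AP, 236 to 270 CPM in 3AP and 272 to 304 CPM in control. Every control library thus lay above every other library in this sum, which was not tested. The 8 choroid plexus markers had 0 calls by edgeR, DESeq2 and limma-voom in every comparison (1, 0 and 0 at an unadjusted p under 0.05, in the same order). Of 6 meningeal fibroblast markers 1 (Dcn) rose in 3AP against control and 2 (Dcn and Col1a1) fell in PLX3AP against 3AP. The Col1a1 call was lost without 3AP replicate 1 or 2 or PLX3AP replicate 1 or 2, and on TPM (0.0771 to 0.194). Of 6 astrocyte markers 1 (Gfap) rose and 1 (Aqp4) fell in 3AP against control, and Gfap fell in PLX3AP against 3AP. The Gfap rise was lost without any 1 control library, with only the 2 groups compared and under the replicate block (0.0529 to 0.069). The Aqp4 call was lost without control replicate 1 or 2 or any 1 3AP library, and on TPM (0.0613 to 0.146). The Gfap fall was lost in 10 of 17 alternatives, among them leaving out any 1 library other than 3AP replicates 1 and 3 (0.0667 to 0.141). EdgeR called 0 of 5 oligodendrocyte markers and 0 of 7 cerebellar neuron markers in all 3 comparisons. Unadjusted p-values under 0.05 numbered 3, 2 and 0 for oligodendrocytes and 2, 0 and 1 for neurons, and DESeq2 called 3, 1 and 0 for oligodendrocytes and 0 for neurons, limma-voom 1, 0 and 0 for oligodendrocytes and 0 for neurons.

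**Figure D5:**
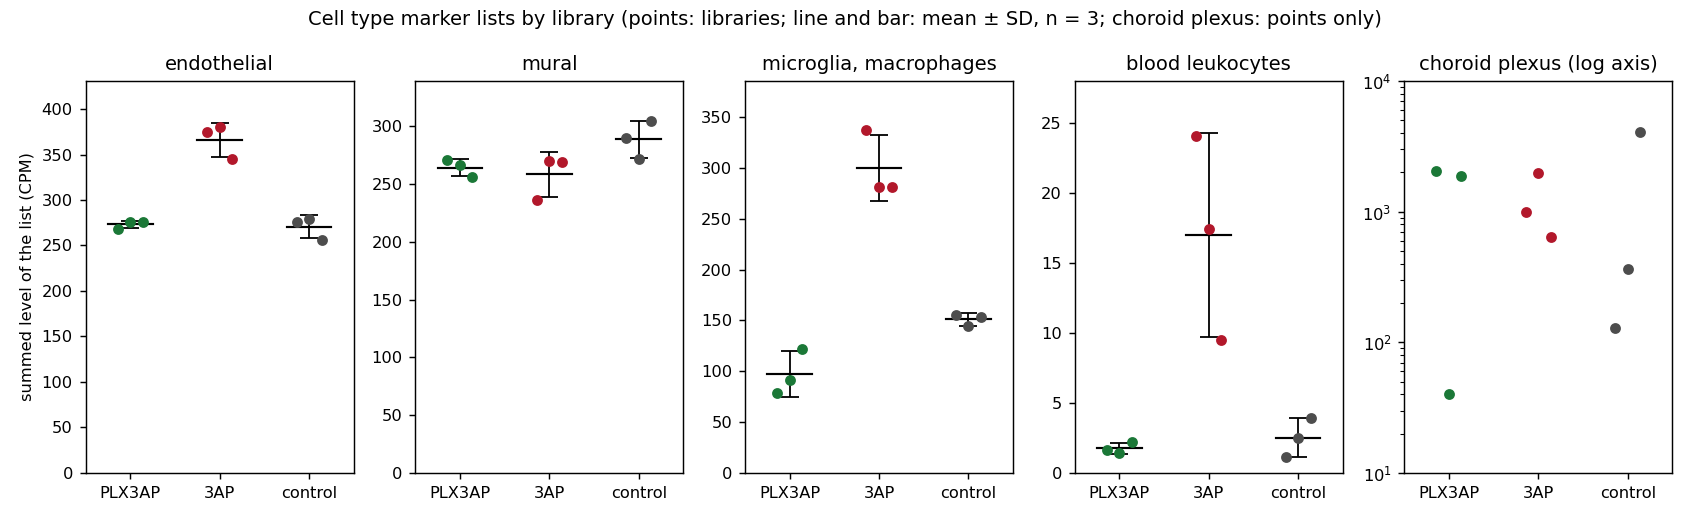
Summed CPM of 5 marker lists in each library, by group, with mean and SD (n = 3) except for choroid plexus, which is on a log axis. Endothelial sums are 345 to 380 in 3AP and 256 to 280 in the other libraries, and choroid plexus sums range from 40.2 to 4042. Mural sums overlap between PLX3AP and 3AP, and all control libraries lie above both.

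Genes whose profile was most like that of each of the 7 were found by the root mean square difference of log2 CPM over the 9 libraries, each profile centred on its own mean. Cldn5 and Pecam1 were each other's nearest among all 16634 tested genes, at a difference of 0.0749. Cldn5 was then nearest to Itih3 (0.0947) and Parp3 (0.112), and Pecam1 to B2m (0.103) and Tagln2 (0.113). Cdh5 was nearest to Notch4 (0.0795), Vwa5a (0.0901) and Rpl14-ps1 (0.0941). Esam was nearest to Dap (0.0457), Pabpc1 (0.0473) and Ptpn23 (0.0482), Ocln to Vta1 (0.0508), Cebpzos (0.0637) and 4931406C07Rik (0.0651), and Tjp1 to Tmod2 (0.0377), Dnajc13 (0.0377) and Cdc42bpa (0.0391). Genes that vary little lie close to many others by this measure. Cd93 had no gene as close, the nearest being Slc15a3 (0.165), Itgb2 (0.211) and Pla1a (0.212). Of these Itgb2, a leukocyte integrin chain, was at 1.82 ± 0.364 CPM in PLX3AP, 10.4 ± 2.71 CPM in 3AP and 2.27 ± 0.278 CPM in control. Between members, Cdh5 and Esam differed by 0.158, Cldn5 and Cdh5 by 0.364, and Cd93 and Ocln, the pair farthest apart of the 21 pairs, by 1.047.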

How the data were processed

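Total RNA of mouse cerebellum was measured in 9 libraries of 3 groups, as the labels give them. The submitters' processing notes name fastp, HISAT2, StringTie, RSEM and the mm10 build. Their versions, the annotation, strandedness and filters were each not given in the sources used here. Values deposited as counts are expected counts (28.7 to 30.8% of values above 0 are not whole), without normalisation. The deposited TPM files hold TPM, scaled by the authors to transcript length and library total. CPM and log2 fold changes were computed here.

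Rows without a gene name (1884, 0.526 to 0.66% of counts) were left out. The other expected counts were rounded and tested with edgeR 4.0.16 (R 4.3.3). The filterByExpr step kept 16634 genes, TMM factors were 0.986 to 1.02, and a robust quasi-likelihood model took all 9 libraries with a term for each group. P-values are two-sided, Benjamini-Hochberg adjusted across every gene tested, with calls under 0.05. The SE is the log2 fold change over the square root of F, and intervals use the t distribution. Relative levels used log2 CPM with a prior count of 2. With simulated counts the fit recovered 53.7, 79.1 and 97.0% of planted 1.5-, 2- and 4-fold changes in 3AP against control, and 11 of its 164 calls were false.

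The members and gene lists were chosen with earlier results of these data known. Genes named from lists were, per comparison, the called genes with the smallest p (at most 3 a direction) and a fixed set named whatever its values. Cd248, Eng, Pf4, Itga2b, Gp1bb, Csf1r, P2ry12 and the called marker genes beyond the 3 were named after their values were seen. Of the fixed set, 1 gene is not reported here. Alternatives were DESeq2 1.42.0, limma 3.58.1 (voom, and trend on log2(TPM + 1) or log2(TPM + 0.1)), RLE factors, no filter, only the 2 groups compared, a replicate block, and leaving out each library. No sign of pairing by replicate number was seen, which cannot exclude it. The correlation of deviations was -0.203 to 0.0931 between same-numbered libraries of different groups. Between differently numbered libraries it was -0.112 to 0.232.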

Additional observations from a re-analysis of the deposited data

How the results depend on the processing

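The number of the 7 genes called was 3 or 4 in 3AP against control and in PLX3AP against 3AP, and 0 in PLX3AP against control, under all 17 alternatives. Cldn5, Pecam1 and Cd93 were called in 3AP against control and in PLX3AP against 3AP under all 17 alternatives, with log2 fold changes of 1.30 to 1.46, 1.21 to 1.34 and 1.65 to 2.18, and of -1.14 to -0.99, -1.16 to -1.02 and -2.26 to -1.66. Cdh5 was called in 13 of 17 and 12 of 17. On log2(TPM + 1) and log2(TPM + 0.1), limma-trend gave it 0.51 and 0.56 in 3AP against control and -0.45 and -0.50 in PLX3AP against 3AP, which did not pass, and leaving out each library it ran from 0.46 to 0.55 and from -0.56 to -0.40; the cause was not tested. Of the values that passed no test, Ocln, Tjp1, Cdh5 and Esam changed sign in some alternatives. The difference between groups in the level of Cdh5 relative to endothelial markers changed sign in some recomputations. So did those of Ocln, Tjp1 and Esam in PLX3AP against control.

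Calls over all genes varied more. In 3AP against control the 820 became 528 on log2(TPM + 0.1) and 466 to 991 without single libraries, and in PLX3AP against 3AP the 621 became 401 to 715 without single libraries, 770 with DESeq2 and 780 with no filter on low counts. In PLX3AP against control the 20 became 110 with DESeq2, 71 with no filter on low counts, 10 with the replicate block, 4 on log2(TPM + 1) and 7 to 153 without single libraries (153 without PLX3AP replicate 1). The replicate block changed no call of the 7 genes. With 3 libraries a group, the exact tests of relative levels cannot pass. Planted changes of 1.5-fold, in genes drawn at many levels, were recovered in 53.7 to 55.2% of cases. This rate is not that of Esam, Ocln and Tjp1 themselves, of which small changes may still be missed.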
